A study of Mus musculus with 9 samples.

Results

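The 7 genes examined here restrain T cell receptor signalling, and they were followed across 9 mouse CD4+ T cell libraries: the ubiquitin ligases Cblb, Cbl, Rnf128 and Itch, the Itch adaptor Ndfip1, and the diacylglycerol kinases Dgka and Dgkz. They were taken from the gene table by symbol, and all 7 of 7 were found among its 39253 genes and passed the low-count filter in every comparison. The libraries came from mice on day 9 of experimental autoimmune encephalomyelitis (EAE), an autoimmune disease of the central nervous system induced by immunisation, and the genotypes were wildtype and knockout (KO) of estrogen receptor α (ERα, encoded by Esr1). Batch 1 held wildtype replicates 1 and 2 and KO replicates 1, 2 and 3, and batch 2 held wildtype replicates 3 and 4 and KO replicates 4 and 5. The labels do not give the cells in which Esr1 was deleted, the allele, the strain, sex or age of the mice, the tissue the T cells came from, or whether each library is a separate animal. The p-values therefore measure the spread between these libraries, which may be technical. The series' title speaks of dendritic cells, whereas the cells measured here were CD4+ T cells.

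A T cell whose receptor is engaged without costimulation can become anergic, that is, alive but unresponsive to later stimulation. Anergic cells are known to hold ubiquitin ligases that mark receptor-proximal signalling proteins for degradation or removal, and diacylglycerol kinases that convert diacylglycerol, the second messenger that recruits RasGRP1 and protein kinase C θ, to phosphatidic acid. Cbl-b sets the requirement for CD28 costimulation, GRAIL (the product of Rnf128) is a membrane ligase of anergic cells, Itch acts on JunB and is activated by Ndfip1, and the kinases DGKα and DGKζ damp Ras signalling downstream of the receptor.

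Library totals were 4926347 to 11296593 counts in batch 1 and 45013017 to 69844721 in batch 2, so the Rnf128 values of batch 1 rest on few counts. The targeted gene, Esr1, had 101 and 76 counts in the wildtype libraries of batch 2 against 9 and 14 in the libraries labelled KO. In batch 1 it had 55 and 80 counts in wildtype against 72, 55 and 66 in the libraries labelled KO, so it did not separate the labels there. Which exons were deleted is not given. Directions given for batch 1 are those between libraries labelled KO and wildtype. KO replicate 3 stood apart from the rest of batch 1: it had 30.4 CPM (counts divided by the library total, times 1e6) of Xist, the X-inactivation RNA, against 1745 to 2680 in the other batch 1 libraries, and 55.4 CPM of the Y-linked gene Ddx3y against 0. The batch 2 libraries had 0 to 0.289 CPM of Xist and 93.6 to 107 of Ddx3y. By these 2 genes batch 2 was male-like, and batch 1 was female-like except for KO replicate 3, which had both RNAs. Sex and batch therefore cannot be told apart here. Within batch 1 the libraries labelled KO also differ from wildtype in this pattern, through KO replicate 3. In CPM, Esr1 was 4.87 and 16.2 in wildtype of batch 1 and 9.58, 6.31 and 13.0 in the libraries labelled KO. In batch 2 it was 1.45 and 1.69 in wildtype against 0.143 and 0.256 in KO. The batch 1 libraries labelled KO were thus above the batch 2 wildtype libraries, and the cause was not tested. Cd3e, Cd4 and the other CD4 T cell markers were detected in every library.

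Promoter sequence is shown first because ERα is a transcription factor that binds DNA. RefSeq promoters of build GRCm38.p6 matched 5 of the 7 genes, in 9 windows, and the 250 bases before the start were searched on both strands. The motif GGTCANNNTGACC, the full estrogen response element, was in none of the 9 windows and in 0.0639% of all 32851 promoters of that length. The half-site GGTCA, which also forms each arm of the full element, was in 35.2% of all promoters, with 1 match in Cbl, 1 in Rnf128, and 2 in each of 2 of the 4 Dgka windows. No half-site was found in the Cblb window, in the other 2 Dgka windows or in the 2 Dgkz windows. The windows of Cblb (chr16:52031299-52031548, plus strand), Cbl (chr9:44234047-44234296, minus strand), Rnf128 (chrX:139610370-139610619, plus strand) and the most upstream Dgka start (chr10:128745085-128745334, minus strand) follow, 5′ to 3′ on the gene's strand, with half-sites in capitals (GGTCA, or TGACC where the match is on the other strand).
Cblb: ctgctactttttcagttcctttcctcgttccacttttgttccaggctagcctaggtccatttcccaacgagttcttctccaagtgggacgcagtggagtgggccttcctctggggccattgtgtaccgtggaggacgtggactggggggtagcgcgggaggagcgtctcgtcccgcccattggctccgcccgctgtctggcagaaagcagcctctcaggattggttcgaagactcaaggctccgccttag
Cbl: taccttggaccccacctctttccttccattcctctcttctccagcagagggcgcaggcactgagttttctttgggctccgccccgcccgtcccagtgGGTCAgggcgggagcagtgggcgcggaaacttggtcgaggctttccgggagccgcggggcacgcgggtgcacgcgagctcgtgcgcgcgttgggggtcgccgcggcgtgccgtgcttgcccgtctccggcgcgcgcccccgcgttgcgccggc
Rnf128: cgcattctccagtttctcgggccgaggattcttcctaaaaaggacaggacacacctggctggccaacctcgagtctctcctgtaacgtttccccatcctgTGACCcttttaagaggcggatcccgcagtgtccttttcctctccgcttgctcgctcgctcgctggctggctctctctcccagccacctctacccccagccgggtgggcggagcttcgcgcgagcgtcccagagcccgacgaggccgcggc
Dgka: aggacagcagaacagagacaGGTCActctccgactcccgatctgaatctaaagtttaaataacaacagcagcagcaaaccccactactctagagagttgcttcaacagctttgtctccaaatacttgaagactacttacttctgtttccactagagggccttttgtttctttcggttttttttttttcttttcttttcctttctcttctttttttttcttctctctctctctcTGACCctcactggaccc
The Cblb window is shown because Cblb had the smallest p of the 7 genes in batch 2, and it holds no half-site. The half-site of Cbl begins 153 bases before the start and that of Rnf128 lies at 150 bases, and those of Dgka lie at 230 and 17 bases. GGAAA, the core bound by NFAT factors that turn on anergy genes, was in 55.6% of all promoters and had 2 matches in Cblb, 3 in Cbl, 2 in Rnf128 and 2 in the Dgka window shown. The Egr site GCGTGGGCG (0.536% of all promoters) and the FOXO site TGTTTAC (3.17%) were in none of the 9 windows. These matches describe letters only.

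No member passed the test for genotype in either batch or over both. With edgeR's quasi-likelihood test and an adjusted p under 0.05, 0 of 7 were called over both batches (background 0.00451% of genes tested), 0 of 7 in batch 1 (0.126%), 0 of 7 in batch 2 (0%) and 0 of 7 for the interaction of batch and genotype (0.00451%). At an unadjusted p under 0.05 the counts were 0 of 7 over both batches (background 2.36%), 0 of 7 in batch 1 (1.97%) and 1 of 7, Cblb, in batch 2 (7.77%). DESeq2 and limma-voom also called 0 of 7 in each of these comparisons. The fitted differences pointed in different directions in the batches: the log2 fold change of KO over wildtype was above 0 for 4 of 7 members over both batches (51.4% of genes tested), for 2 of 7 in batch 1 (53.8%) and for 7 of 7 in batch 2 (47.8%), with Itch at 0.00. Without KO replicate 3 the batch 1 count was 4 of 7, without wildtype replicate 1 it was 5 of 7, and without KO replicate 1 it was 0 of 7. The batch 2 count was 7 of 7 without wildtype replicate 3 and 6 of 7 without wildtype replicate 4 or KO replicate 4. The CPM of the 2 genotypes did not overlap for 5 of 7 members in batch 2, all higher in KO (19.6% of genes tested), and for 1 of 7 in batch 1, lower in KO (5.19%).

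**Figure D1:**
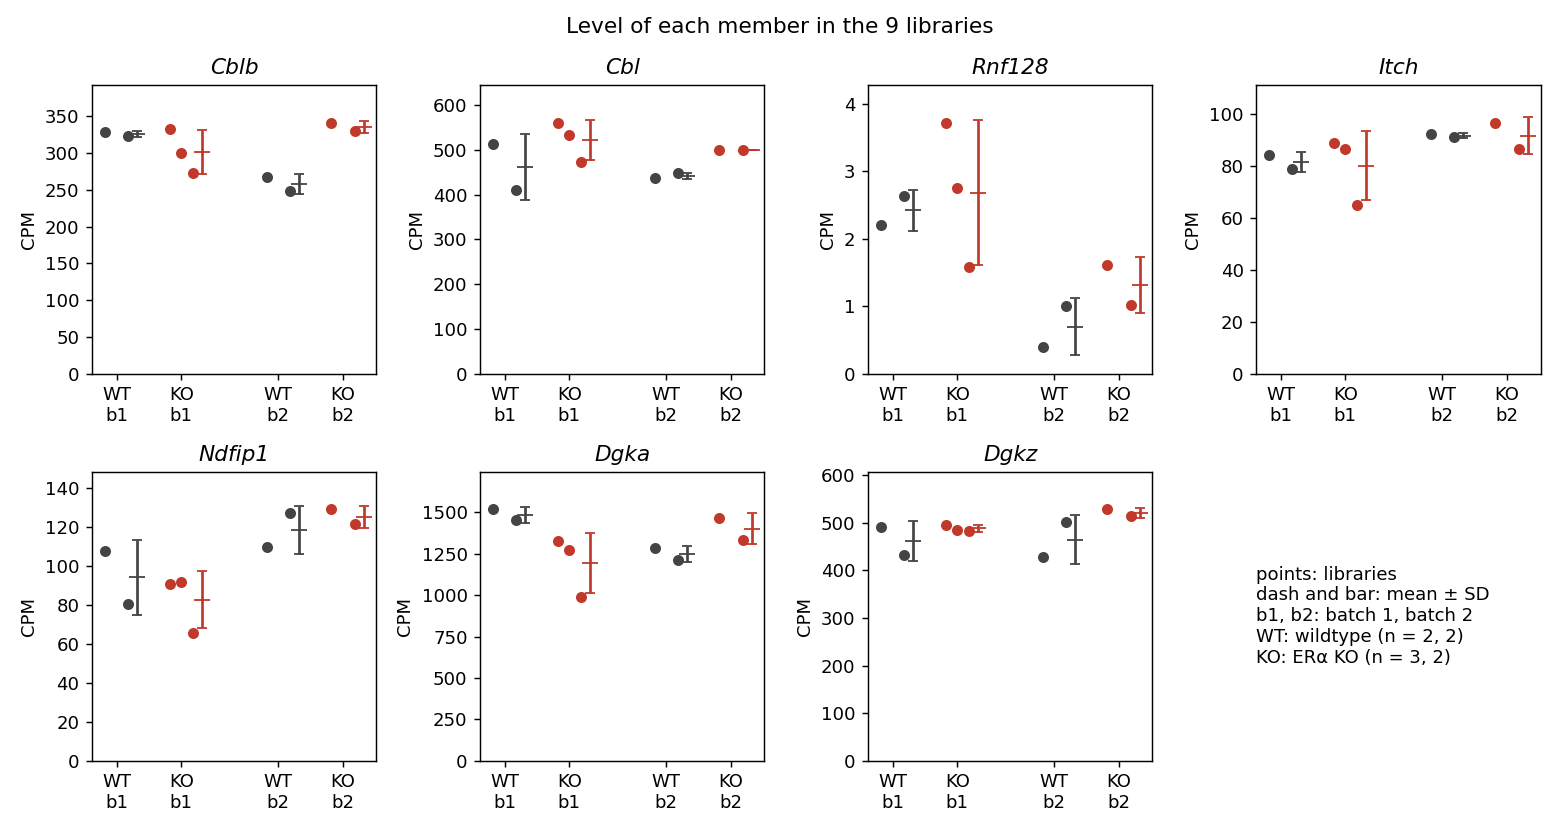
Level of each of the 7 genes in CPM (y axis, from 0) in every library, by genotype and batch; points are libraries, and the dash and bar give mean ± SD. Cblb in batch 2 shows KO libraries at 329.7 and 341 above wildtype libraries at 248 and 268, whereas in batch 1 the groups overlap.

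Cblb, the ligase that makes T cell activation depend on CD28, gave the smallest p of the 7 genes in batch 2. Its batch 2 levels were 268 CPM in wildtype replicate 3, 248 in wildtype replicate 4, 341 in KO replicate 4 and 329.7 in KO replicate 5. The KO libraries were both above the wildtype libraries, with means of 335 ± 7.99 against 258 ± 13.9 CPM (SD, n = 2 each). Its batch 1 levels were 328 and 323 CPM in wildtype against 332, 299.7 and 272 in KO replicates 1, 2 and 3. These groups overlapped, since the lowest and the highest library of batch 1 were both labelled KO. The batch 2 log2 fold change was 0.38 ± 0.11 (SE; 95% interval 0.11 to 0.65), which is 1.30-fold, with an edgeR adjusted p of 0.625 over 15910 genes. The batch 1 value was -0.24 ± 0.37 (-0.98 to 0.49, adjusted p = 1), and over both batches 0.09 ± 0.13 (-0.21 to 0.38, adjusted p = 1). The difference between the batches, tested as an interaction, was 0.52 ± 0.23 (adjusted p = 0.591), and 1 of 7 members, Cblb, had an unadjusted p under 0.05 there (background 8.36%). Cblb was called in batch 2 only when wildtype replicate 3 was left out (0.48, adjusted p = 0.0453), where the one wildtype library left is assumed to vary like the KO libraries. Without wildtype replicate 4 it was 0.28.

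Cbl encodes the relative of Cbl-b that ubiquitinates receptor-proximal kinases and the receptor itself. Batch 2 gave 438 and 447 CPM for wildtype against 499 and 500.2 for KO, and the groups did not overlap. In batch 1 wildtype libraries had 513 and 410.0 CPM and KO libraries 561, 534 and 473, so the higher wildtype library lay inside the KO range. The spread of wildtype in batch 1 (462 ± 72.9 CPM, SD, n = 2) exceeded the difference from KO (523 ± 44.7, n = 3). The log2 fold change was 0.18 ± 0.09 in batch 2 (-0.04 to 0.40, adjusted p = 0.692), 0.03 ± 0.37 in batch 1 (adjusted p = 1) and 0.15 ± 0.12 over both (-0.10 to 0.41, adjusted p = 1). The batch 1 value was -0.11 with the scaling of DESeq2, so it has no settled sign.

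Rnf128, which encodes GRAIL, was the scarcest of the 7 genes. Wildtype of batch 1 gave 25 and 13 counts and KO 28, 24 and 8, which is 2.21 and 2.64 CPM against 3.72, 2.75 and 1.58. Wildtype of batch 2 gave 28 and 45 counts and KO 101 and 56, which is 0.401 and 1.00 CPM against 1.61 and 1.03. KO was above wildtype in batch 2 by a margin of 1.03 against 1.00 CPM between the nearest libraries, and KO spanned wildtype in batch 1. The log2 fold change was 0.94 ± 0.69 in batch 2 (-0.81 to 2.68, adjusted p = 0.772), 0.07 ± 0.72 in batch 1 (adjusted p = 1) and 0.50 ± 0.55 over both (adjusted p = 1). The batch 2 value ran from 0.44 (wildtype replicate 3 left out) to 1.67 (wildtype replicate 4 left out). A floor of 3 counts corresponds to 0.266 to 0.609 CPM in batch 1 and 0.043 to 0.0666 in batch 2, and every library was above it.

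The level of Rnf128 was set beside 1489 of the 1514 olfactory, vomeronasal and taste receptor genes, those with an exonic length, which are mostly silent outside sensory cells, per kilobase of exon (GENCODE M21). Rnf128 had 7.22 and 3.75 counts per kilobase in the wildtype libraries of batch 1 against 1.17 and 1.36 for the receptor genes pooled. KO replicates 1 and 2 had 8.08 and 6.93 against 1.51 and 1.60, and KO replicate 3 had 2.31 against 2.34. In KO replicate 3 Rnf128 was at the level of the receptor genes, 47.3% of which were at or above it, whereas in the other 4 libraries of batch 1 that share was 2.89% to 13.0%. In batch 2 Rnf128 was 23.3 to 97.9 times the pooled receptor level, and 0.201% to 0.672% of the receptor genes were at or above it. The receptor genes took 0.0577% to 0.256% of counts in batch 1 and 0.00258% to 0.0037% in batch 2, highest in KO replicate 3. Their part in the Rnf128 values was not tested.

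**Figure D2:**
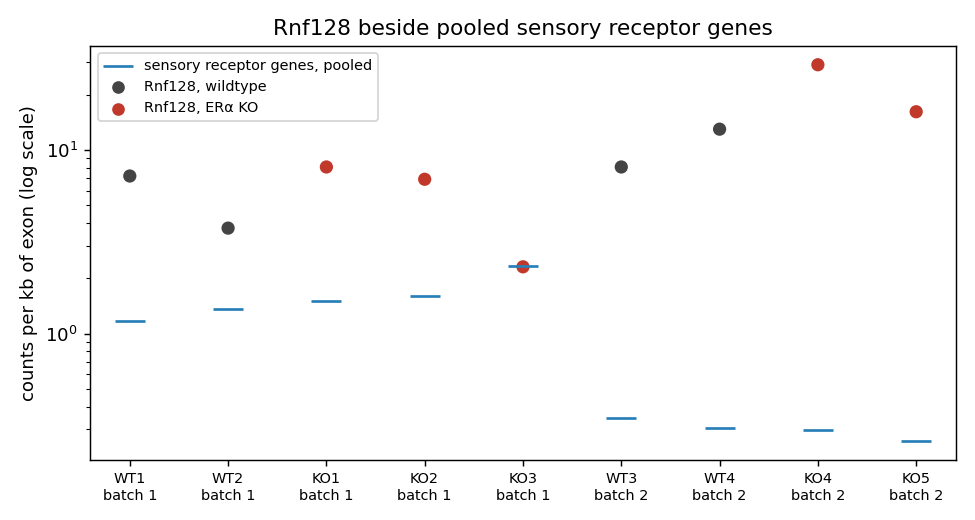
Counts per kilobase of exon (y axis, log scale) for Rnf128 (points, coloured by genotype) and for the sensory receptor genes pooled (bars) in each of the 9 libraries. The point and the bar coincide in KO replicate 3 (2.31 and 2.34) and are 23.3 to 97.9 times apart in batch 2.

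Itch encodes a Nedd4-family ligase that targets JunB, and its level hardly differed between genotypes. Batch 2 gave 92.2 and 90.9 CPM for wildtype against 96.5 and 86.5 for KO, where the KO libraries lay on both sides of wildtype and both means were 91.5. Batch 1 gave 84.0 and 78.8 CPM for wildtype against 88.6, 86.5 and 64.9 for KO, and KO replicate 3 was the lowest of all 9 libraries. The log2 fold change in batch 2 was 0.00 ± 0.11 (-0.28 to 0.29, edgeR adjusted p = 0.998), an interval that spans 0.822-fold to 1.22-fold. For batch 1 it was -0.15 ± 0.37 and over both batches -0.04 ± 0.13 (-0.31 to 0.24, adjusted p = 1 in each), with no stable sign across settings.

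Ndfip1 encodes the membrane adaptor that recruits and activates Itch and its relatives. Batch 2 levels were 109.7 and 127 CPM for wildtype against 129 and 121 for KO, with overlap. Batch 1 levels were 108 and 80.6 CPM for wildtype against 90.6, 91.9 and 65.7 for KO, and KO replicate 3 was again the lowest library. The log2 fold change was 0.09 ± 0.11 in batch 2 (-0.18 to 0.35, adjusted p = 0.878), -0.33 ± 0.37 in batch 1 and -0.09 ± 0.15 over both (adjusted p = 1 in each). The batch 1 value ran from -0.68 without wildtype replicate 2 to 0.09 without wildtype replicate 1. The Ndfip1 to Itch count ratio was 1.28 and 1.02 in wildtype and 1.02, 1.06 and 1.01 in KO of batch 1, and 1.19 and 1.40 against 1.34 and 1.40 in batch 2. The genotypes overlapped in this ratio in both batches.

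Dgka, the diacylglycerol kinase whose fall after activation is part of a productive T cell response, was the most abundant member. Batch 1 gave 1519 and 1452 CPM for wildtype against 1327, 1274 and 989 for KO. All 3 KO libraries lay below both wildtype libraries, with means of 1197 ± 182 (SD, n = 3) against 1485 ± 47.0 CPM (n = 2). In batch 2 the order was the opposite, with 1283 and 1215 CPM in wildtype below 1468 and 1334 in KO. The log2 fold change was -0.44 ± 0.36 in batch 1 (-1.17 to 0.29, adjusted p = 1), 0.17 ± 0.11 in batch 2 (-0.11 to 0.44, adjusted p = 0.745) and -0.12 ± 0.15 over both (adjusted p = 1). The interaction was 0.51 ± 0.26 (adjusted p = 0.608). The batch 1 value ran from -0.23 (wildtype replicate 1 left out) to -0.65 (wildtype replicate 2 left out).

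Dgkz encodes DGKζ, the isoform that dominates diacylglycerol removal after receptor engagement in many T cells. It varied least of the 7 genes, with a highest library 1.23 times the lowest. Batch 1 levels were 492 and 433 CPM for wildtype against 496, 486 and 484 for KO, and batch 2 levels 429 and 501 against 528 and 514. Wildtype overlapped KO in batch 1, and both KO libraries of batch 2 were above wildtype. The log2 fold change was -0.07 ± 0.36 in batch 1 (adjusted p = 1), 0.17 ± 0.10 in batch 2 (-0.07 to 0.42, adjusted p = 0.719) and 0.09 ± 0.10 over both (-0.13 to 0.32, adjusted p = 1). The batch 1 sign differed from that of the CPM means (488 in KO against 462 in wildtype) because the fit rescales libraries by TMM factors, from 0.837 in wildtype replicate 1 to 1.27 in KO replicate 3.

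**Figure D3:**
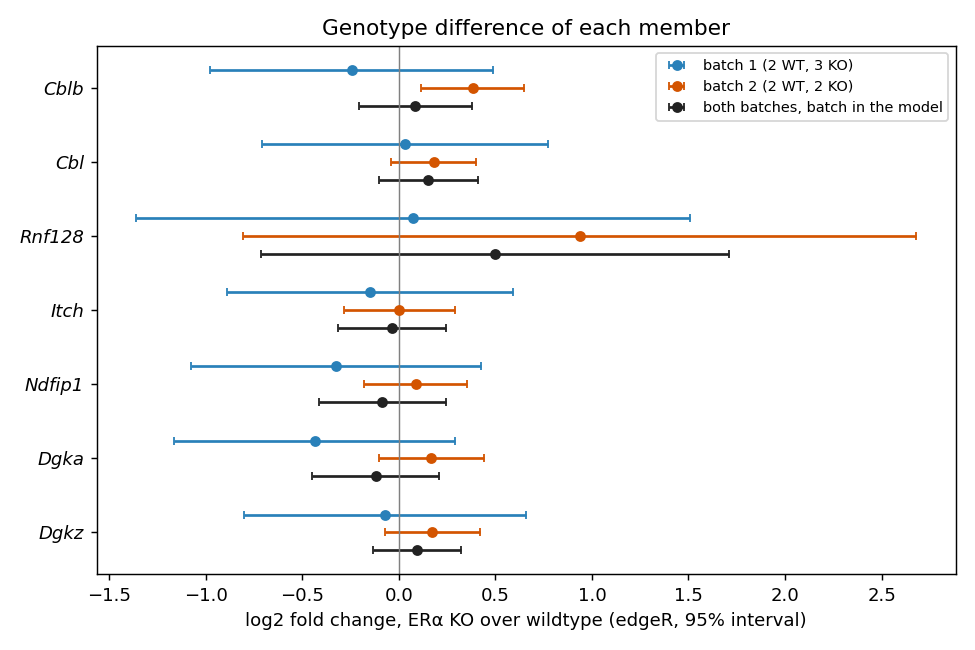
Log2 fold change of KO over wildtype (x axis) with its 95% interval from edgeR for each gene in batch 1 (2 wildtype, 3 KO), batch 2 (2 and 2) and both batches with batch in the model. Only the batch 2 interval of Cblb (0.11 to 0.65) leaves out 0.

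The ratio of 2 genes within a library does not depend on the scaling between libraries. The Cblb to Cbl count ratio was 0.639 and 0.788 in wildtype and 0.592, 0.561 and 0.575 in KO of batch 1, and 0.612 and 0.554 against 0.684 and 0.659 in batch 2. It was lower in all KO libraries of batch 1 and higher in both of batch 2. The Dgka to Dgkz ratio was 3.09 and 3.36 in wildtype and 2.68, 2.62 and 2.04 in KO of batch 1, with no overlap, and 2.99 and 2.43 against 2.78 and 2.59 in batch 2, where KO lay inside the wildtype range. These ratios are given as values, and no test was run on them.

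**Figure D4:**
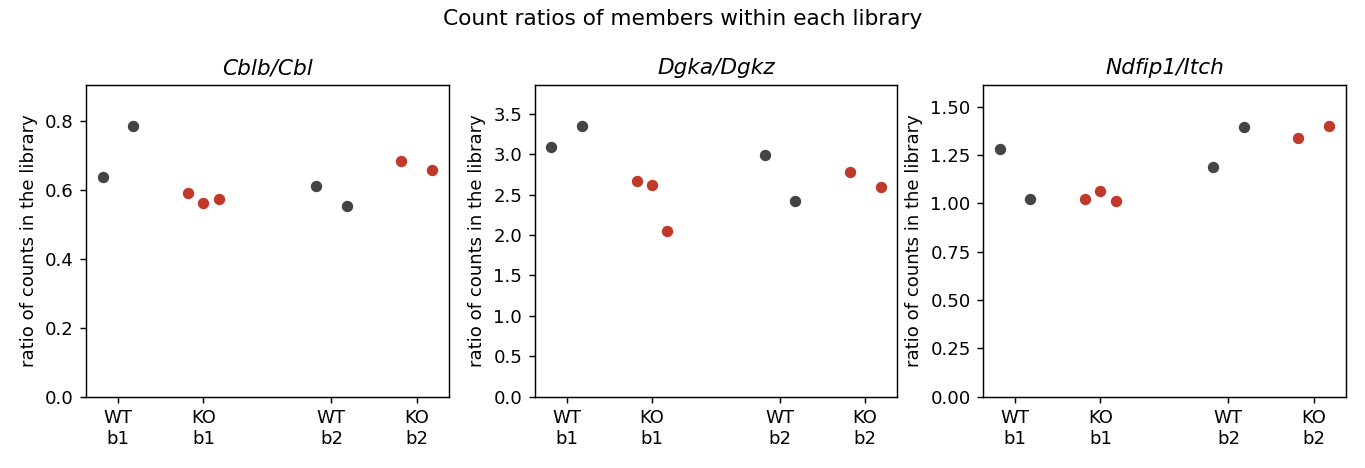
Ratio of counts within each library (y axis, from 0) for the pairs Cblb/Cbl, Dgka/Dgkz and Ndfip1/Itch; points are libraries by genotype and batch. The Cblb/Cbl points of KO lie below wildtype in batch 1 (0.561 to 0.592 against 0.639 and 0.788) and above it in batch 2 (0.659 and 0.684 against 0.554 and 0.612).

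The sum of CD4 T cell markers also differed between the genotypes, in opposite directions in the batches. The summed CPM of 8 CD4 T cell markers was 4075 to 4254 in wildtype and 3604 to 3752 in KO of batch 1, and 4517 to 5048 against 5191 to 5263 in batch 2. Cd3e, the CD3ε chain of the receptor complex, stood at 1230 and 1235 CPM in wildtype and 1071, 1077 and 1079 in KO of batch 1, and at 1266 and 1285 against 1471 and 1522 in batch 2. Cd3e was thus lower in all KO libraries of batch 1 and higher in both of batch 2, with a log2 fold change of 0.23 ± 0.09 in batch 2 (edgeR adjusted p = 0.637) and -0.34 ± 0.36 in batch 1 (adjusted p = 1). Cd3d and Cd3g separated the genotypes in the same directions as Cd3e in CPM. Cd4 was lower in all KO libraries of batch 1 but overlapped in batch 2. The other markers of the list, Cd5, Cd28, Lck and Thy1, overlapped in both batches. In bulk RNA, fewer cells of a type and less RNA per cell cannot be told apart.

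Counts of members were also divided by those of Cd3e, a choice made after the values were seen. For Dgka this gave 1.23 and 1.18 in wildtype and 1.24, 1.18 and 0.916 in KO of batch 1, and 1.01 and 0.945 against 0.998 and 0.877 in batch 2. The genotypes overlapped in both batches on this scale, unlike in CPM. For Cblb it gave 0.211 and 0.193 in wildtype and 0.232 and 0.217 in KO of batch 2, where KO stayed above wildtype, and 0.267 and 0.262 against 0.31, 0.278 and 0.252 in batch 1, where the groups overlapped. For Cbl it gave 0.346 and 0.348 in wildtype and 0.339 and 0.329 in KO of batch 2, so that KO lay below wildtype, the reverse of the order in CPM. In batch 1 Cbl gave 0.417 and 0.332 in wildtype against 0.523, 0.496 and 0.439 in KO, with KO above wildtype. Dgkz was likewise higher in KO of batch 1 on this scale (0.3997 and 0.3505 against 0.463, 0.451 and 0.448), and Itch lower in KO of batch 2 (0.0729 and 0.0707 against 0.0656 and 0.0568). Dgkz of batch 2 gave 0.339 and 0.390 in wildtype against 0.359 and 0.338 in KO. Rnf128 of batch 2 gave 3.17e-04 and 7.78e-04 in wildtype against 1.09e-03 and 6.74e-04 in KO. Both overlapped on this scale, unlike in CPM. Of the members that did not overlap in CPM in batch 2, only Cblb kept its order without overlap. Whether the genotypes separate, and for Cbl the direction, thus differed between CPM and counts divided by Cd3e. Cd3e itself was higher in KO of batch 2 and lower in KO of batch 1. Dividing by it therefore lowers the KO values of batch 2 relative to wildtype and raises those of batch 1. No other gene was used as divisor, so the changes of order are given for Cd3e only.

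Markers of other cells and states differed between the libraries too. Proliferation markers summed to 2752 and 1514 CPM in the wildtype libraries of batch 2 against 737 and 1062 in KO, and to 455 to 849 against 554 to 877 in batch 1. The activation and receptor response list, which includes Nr4a1 and Cd69, summed to 1264 to 1265 CPM in wildtype and 967 to 969 in KO of batch 2. In batch 1 it summed to 1188 to 1336 against 987 to 1173, so the sum was lower in KO in both batches. Its genes did not all follow. In batch 2 the log2 fold change was -1.52 for Nr4a1, -0.57 for Cd44 and -0.34 for Egr1. It was above 0 there for Cd69 (0.10), Il2ra (0.04), Tnfrsf4 (0.37), Tnfrsf9 (0.19) and Myc (0.20). Tnfrsf4 and Tnfrsf9 were above 0 in batch 1 too. Neutrophil markers summed to 172 and 19.5 CPM in wildtype and 4.66 to 7.63 in KO of batch 2, and to 277 to 767 against 576 to 958 in batch 1, and no gene of that list was at 0 in every library of a group. Erythroid markers reached 1820 CPM in wildtype replicate 3 against 96.9 to 141 in the other batch 2 libraries. B cell markers summed to 16.3 to 21.3 CPM in batch 2 and 47.3 to 101 in batch 1, Cd8a was at 0 in both KO libraries of batch 2, and Krt8 was at 0 in all 4 libraries of batch 2. The brain list, mostly Mbp, summed to 201 to 212 CPM in wildtype and 230.0 to 245 in KO of batch 1, and to 202 to 209 against 231 to 234 in batch 2, higher in KO in both batches, with Aqp4 and Mog at 0 in batch 2. Monocyte and macrophage markers summed to 92.4 to 110.2 CPM in wildtype and 56.6 to 64.5 in KO of batch 2, and dendritic cell markers to 5.94 to 9.49 against 2.61 to 3.81, with Siglech at 0 in KO. Of the monocyte genes only Cd68 and Itgam were lower in KO there without overlap. Csf1r was at 25.1 and 59.0 CPM in wildtype against 27.8 and 27.9 in KO, and Lyz2 at 29.7 and 4.87 against 6.39 and 4.58. Of the dendritic cell genes only Itgax and Xcr1 were lower in KO without overlap. In batch 1 the monocyte sum was 57.0 to 156 CPM in wildtype and 131 to 217 in KO, and the dendritic cell sum 12.8 to 26.8 against 24.2 to 40.6. The CD8 T cell sum, of Cd8a and Cd8b1, was 14.96 to 18.9 CPM in wildtype against 9.71 to 12.8 in KO of batch 1. In batch 2 it was 11.2 to 11.5 against 10.6 to 10.9. The lower sum in KO came from Cd8b1 in batch 1, at 13.6 and 14.6 CPM in wildtype against 7.18, 8.15 and 7.69 in KO. Cd8a did not follow there, at 1.33 and 4.26 against 2.53, 3.90 and 5.13. In batch 2 Cd8a had 11 and 0 counts in wildtype. The NK cell sum was 29.4 to 38.0 CPM in wildtype and 23.3 to 27.5 in KO of batch 2, and the epithelial sum 2.42 to 3.04 against 1.24 to 1.54, both lower in KO. In the NK list of batch 2 the log2 fold change was -2.37 for Gzma, -0.91 for Klrk1 and -0.92 for Ncr1. The values were -0.05 for Klrb1c and 0.43 for Eomes. Of the epithelial genes, Krt18 and Cdh1 overlapped between genotypes there in CPM. In batch 1 the NK cell sum was 28.01 to 31.96 CPM in wildtype and 31.8 to 46.8 in KO, and the epithelial sum 5.58 to 11.6 against 6.78 to 14.6, both with overlap. The part of these cells and states in the members' differences was not tested.

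The batches were also compared, with genotype in the model. Of the 7 genes 3 were called in batch 2 against batch 1, all higher (16.8% of genes were called higher and 64.1% were called in all). Ndfip1 rose by 0.69 ± 0.15 on the log2 scale (adjusted p = 0.002), Itch by 0.40 ± 0.13 (adjusted p = 0.0165) and Dgkz by 0.27 ± 0.10 (adjusted p = 0.0352). Cblb (0.15 ± 0.13), Cbl (0.15 ± 0.12), Dgka (0.23 ± 0.15) and Rnf128 (-1.16 ± 0.56, adjusted p = 0.0891) did not pass with edgeR. Rnf128 was called lower with DESeq2 (-1.23, adjusted p = 0.0257), limma-voom (-1.21, 0.0375) and sample-weighted voom (-1.23, 0.00958), and Dgka higher with sample-weighted voom (0.26, 0.0395). Dgkz lost its call with RLE factors (0.20, adjusted p = 0.0915) as well as with upper-quartile scaling. These values are set against a median over all genes of -0.76, which moved to -0.84 and -0.97 with other scalings. With upper-quartile scaling only Ndfip1 was called, and Cblb and Cbl changed sign. Itch lost its call without wildtype replicate 1 or 2 or KO replicate 4 (adjusted p of 0.0603 to 0.132), and Dgkz without any one of wildtype replicates 1, 2 and 4 and KO replicates 4 and 5 (0.0704 to 0.15). Batch 1 libraries had 32046 to 34085 genes with a count and batch 2 libraries 17008 to 18309, so the batches differ in more than depth. By Xist and Ddx3y they also differ in apparent sex, except for KO replicate 3, and this cannot be told apart from batch.

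Per kilobase of exon, the order of mean levels over the 9 libraries was Dgka (277 CPM per kilobase), Dgkz (77.3), Cbl (39.4), Cblb (29.1), Ndfip1 (16.2), Itch (8.80) and Rnf128 (0.543). The ranges over libraries of Cbl (33.2 to 45.4) and Cblb (23.7 to 32.6) did not overlap, nor did those of Ndfip1 (10.4 to 20.4) and Itch (6.68 to 9.94). This order takes the deposited values as read counts that were not already divided by length.

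The relatives of the ligases gave 0 called genes in every genotype comparison with edgeR. Of 10 tested Cbl-family genes and adaptors, 1 was above 0 in batch 1 and 7 in batch 2, with medians of -0.20 and 0.14 against 0.04 and -0.02 over all genes, and 0 had an unadjusted p under 0.05 in either. Sh2b3, which encodes the adaptor Lnk, had a log2 fold change of 0.11 ± 0.11 over both batches and 0.27 ± 0.11 in batch 2, and Cbll1, which encodes the ligase Hakai, -0.08 ± 0.15 over both and -0.41 ± 0.36 in batch 1 (adjusted p = 1, 0.645, 1 and 1). Of the Nedd4-family ligases and Ndfip2, 4 of 9 were above 0 in batch 1 and 5 of 7 in batch 2, where the smallest p belonged to Wwp1 at 0.28 ± 0.12 (adjusted p = 0.648). Smurf1 and Nedd4l were at 0.20 ± 0.10 and 0.17 ± 0.11 over both batches, and Hecw1 at 0.44 ± 0.43 in batch 1. Among the relatives of Rnf128 and the deubiquitinases, 2 of 10 were above 0 in batch 1 and 6 of 9 in batch 2. There the smallest p-values belonged to Rnf149 (-0.27 ± 0.15 over both, -0.47 ± 0.36 in batch 1), Rnf13 (-0.22 ± 0.15 over both) and Znrf3 (0.29 ± 0.12 in batch 2). Of 11 other tolerance ligases, 4 were above 0 in batch 1 and 10 in batch 2, with 1 of 11 at an unadjusted p under 0.05 in batch 2 (7.77% of genes tested), that of Peli1 (0.33 ± 0.12, adjusted p = 0.626), a ligase that acts on c-Rel. Peli1 was at -0.47 ± 0.37 in batch 1, and Rnf41 and Stub1 were at 0.30 ± 0.14 and 0.34 ± 0.17 over both.

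The genes around the kinases also gave 0 calls with edgeR in each genotype comparison. Of the other diacylglycerol kinases, 4 of 8 were above 0 in batch 1 and 2 of 6 in batch 2, with medians of 0.00 and -0.19. Dgkh was at -0.18 ± 0.15 and Dgkg at -0.21 ± 0.30 over both batches, Dgkh at -0.27 ± 0.36 in batch 1, and Dgkd at 0.27 ± 0.11 in batch 2 (adjusted p = 0.641). Of the genes that make or answer to diacylglycerol, 6 of 16 were above 0 in batch 1 and 13 of 15 in batch 2, with medians of -0.17 and 0.19, and 3 of 15 had an unadjusted p under 0.05 in batch 2 (7.77% of genes tested), of which 2 were higher. Plcg2, a phospholipase C best known from B and myeloid cells, was at 0.78 ± 0.40 in batch 1 and -0.97 ± 0.31 in batch 2 (adjusted p = 0.625). The protein kinase C genes Prkcz and Prkce were at 0.38 ± 0.16 and 0.23 ± 0.11 over both batches.

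Substrates of the ligases, among them Zap70, Vav1 and Lck, were below 0 in 16 of 16 cases in batch 1 and above 0 in 12 of 16 in batch 2, with medians of -0.26 and 0.09 and 0 calls. Junb, an Itch substrate and AP-1 subunit, was at -0.53 ± 0.27 over both batches. Jun was at -1.06 ± 0.16 in batch 2 (adjusted p = 0.618) and Tgfbr1 at -0.51 ± 0.36 in batch 1. Of 14 transcription factors of anergy, 2 were above 0 in batch 1 and 7 in batch 2, and 4 of 14 had an unadjusted p under 0.05 over both batches (2.36% of genes tested), all lower. The NR4A receptor genes, which T cell receptor signals induce, gave the smallest p-values, with Nr4a3 at -0.85 ± 0.20 and Nr4a1 at -1.06 ± 0.28 over both (adjusted p = 1). Nr4a3 was at -0.93 ± 0.37 in batch 1, and Nr4a2 at -2.09 ± 0.34 in batch 2 (adjusted p = 0.618). Of the surface and other genes of anergic cells, 6 of 11 were above 0 in batch 1 and 7 of 12 in batch 2. Nt5e, which encodes CD73, was at 0.59 ± 0.13 over both batches and Izumo1r, which encodes folate receptor 4, at 0.47 ± 0.12 over both and 0.66 ± 0.10 in batch 2, and Btla at -0.41 ± 0.37 in batch 1. None of these passed adjustment (adjusted p of 0.618 to 1). At an unadjusted p under 0.05 in batch 2 (7.77% of genes tested) there were 3 of 16 substrates, all lower, 4 of 14 anergy factors, of which 3 were lower, and 2 of 12 surface genes, both higher. In batch 1 (1.97%) there was 1 of 14 anergy factors, and over both batches (2.36%) 2 of 11 surface genes, both higher.

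**Figure D5:**
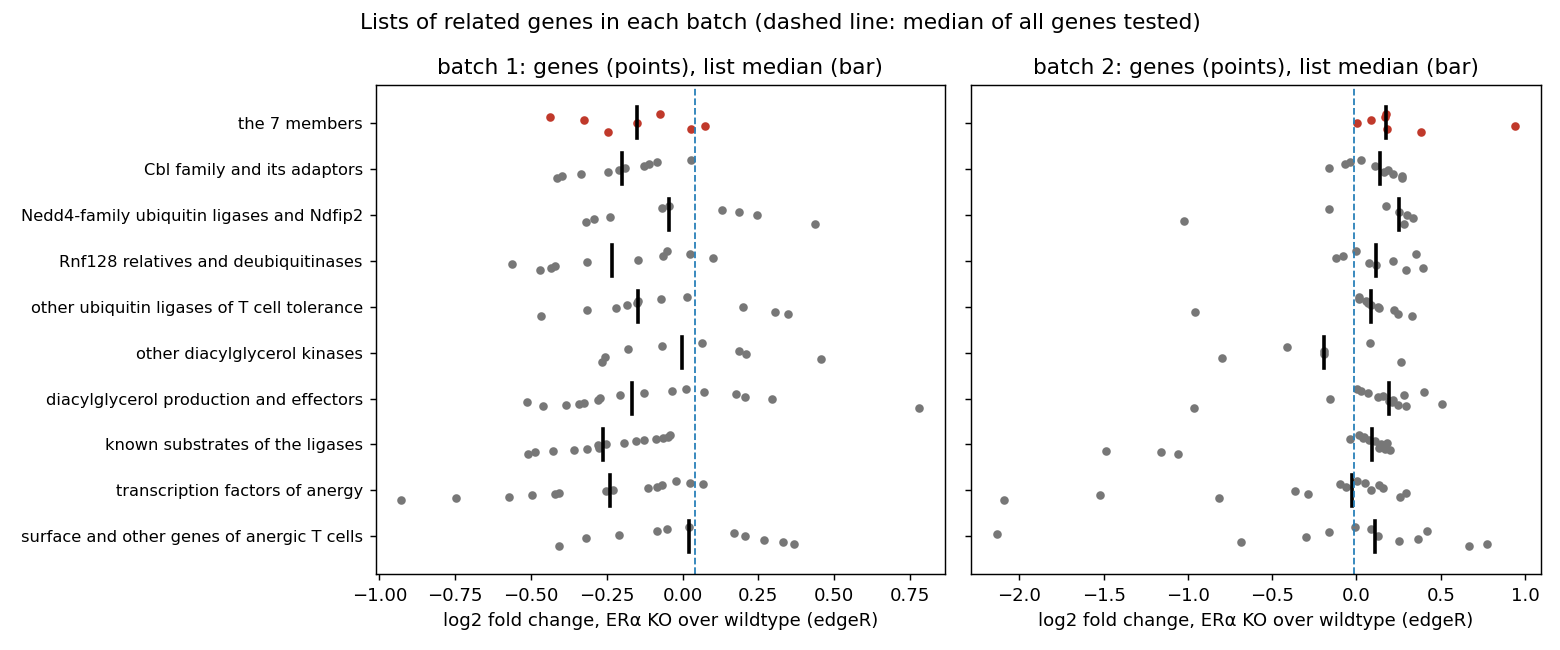
Log2 fold change of KO over wildtype (x axis, edgeR) of the 7 genes and of 9 lists of related genes in batch 1 (left) and batch 2 (right); points are genes, bars list medians, and the dashed line the median of all genes tested (0.04 and -0.02). The median of the 7 genes is -0.15 in batch 1 and 0.17 in batch 2.

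Over all 7 genes the median log2 fold change was 0.09 over both batches (0.01 over all genes), -0.15 in batch 1 (0.04) and 0.17 in batch 2 (-0.02), and the median interaction was 0.30 (-0.19). The interaction was above 0 for 7 of 7 members (38.1% of genes), for 5 of 7 without KO replicate 3, and for 3 of 7 without wildtype replicate 1. With wildtype replicate 3 and KO replicate 3 both left out, an alternative chosen after seeing the data, it was above 0 for 4 of 7 and its median was 0.01. With all libraries the interaction was above 0 for 8 of 9 Rnf128 relatives and deubiquitinases and 13 of 16 substrates. It was above 0 for 11 of 16 diacylglycerol production and effector genes, 7 of 10 Cbl-family genes and 9 of 14 anergy factors. The counts were 6 of 11 other tolerance ligases, 5 of 9 Nedd4-family genes, 5 of 11 surface genes and 3 of 8 other diacylglycerol kinases. A positive interaction was thus not particular to the members.

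The pattern most alike to each member was sought among 8732 genes as the smallest root mean square difference in log2 CPM, after centring each batch, over the 9 libraries. For Cblb these were Uprt (0.0371) and Ppp1r13b (0.0455), against a median over genes of 0.23. For Cbl they were Cipc (0.0344) and Asb13 (0.0369), and for Itch Slc39a7 (0.0249) and Elac2 (0.0296). For Ndfip1 they were Dlg1 (0.0368) and Vps35l (0.047), for Dgka Pcm1 (0.0274) and Pcmtd1 (0.0276), and for Dgkz Vamp1 (0.029) and Fam102a (0.0342). Rnf128 had no near match: Trim5, the closest, was at 0.335, and the median over genes was 0.546. These are descriptions over libraries that share batch and scaling.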

How the data were processed

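Per the labels' protocols, total RNA was column-purified and Ovation libraries were read from one end. The submitters' processing notes name GRCm39, Salmon 1.2.0 and R 4.0.3 but not what each did. The annotation and the strand setting were not given in the sources used here, so overlapping genes on opposite strands cannot be told apart. The authors deposited estimated counts of 39253 genes, per the file headers, and these were not scaled to a common depth. Of the 236181 nonzero values, 0% were within 1e-6 of a whole number, so a scaling by transcript length is possible. A floor of 3 counts is 0.043 to 0.609 CPM, for counting error only.

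Values were rounded to whole numbers and fitted with edgeR 4.0.16 in R 4.3.3 (quasi-likelihood, robust, TMM, minimum count 10, minimum total 15, Benjamini-Hochberg over all genes tested, threshold 0.05). The fits were batch plus genotype (22197 genes), each batch alone (24600 and 15910), the interaction, and the batch term. limma 3.58.1 and DESeq2 1.42.0 were alternatives, with other scalings and filters, each library left out, and a replicate block. The scripts were tested on simulated data with known changes. Replicates of a group differed beyond counting noise, and each library was treated as 1 replicate. That spread does not show whether the libraries are separate animals.

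The 7 members and all lists were chosen with earlier results of these data known. All members are named; of each list, genes past the threshold, the 2 smallest p over both batches and the smallest in each batch; and the 2 genes most alike to each member (mean CPM of at least 10). Of the genes this rule names, 2 are not reported here. Zap70, Vav1, Lck and Cd69 are named as examples of their lists. Cd3e, Xist, Ddx3y and the other single genes given from the marker lists were named after their values were seen. RefSeq sequences are of build GRCm38.p6, from which no coordinates of the deposited values are taken.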

Additional observations from a re-analysis of the deposited data

Results flagged for a closer look

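In groups of 4 or 5 libraries over both batches, 44 groups of values were examined and 4 held 1 library far from the others, where chance gives about 2.2. The Dgka to Dgkz count ratio was 2.04 in KO replicate 3, below the other KO libraries (2.59 to 2.78). The erythroid marker sum was 1820 CPM in wildtype replicate 3. The sum of the brain list was 245 CPM in KO replicate 3. The activation and receptor response sum was 1173 CPM in KO replicate 2, above the other KO libraries. The groups pool the batches, and the causes were not tested.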

How the results depend on the processing

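Of the member values, 463 kept direction and side of the threshold under the alternatives, 53 changed sign, 5 gained and 11 lost a call. The number of members called stayed 0 over both batches, in batch 1 and for the interaction under every alternative run, and in batch 2 except without wildtype replicate 3 (range 0 to 1 on leaving out a library). For the batch term it was 3. Other settings ranged from 1 with upper-quartile scaling to 5 with sample-weighted voom (4 of them higher and Rnf128 lower). Leaving out a library gave 1 to 3.

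Signs changed as follows; the causes were not tested. Over both batches: Cblb -6.26e-06 and Dgkz -0.0057 without the filter, Itch 0.018 and Ndfip1 0.032 with weighted voom, and Itch 0.035 without wildtype replicate 3 and KO replicate 3. In batch 1: Cbl -0.11 with RLE factors and with DESeq2, Rnf128 -0.039, -0.038 and -0.049 with RLE factors, DESeq2 and voom, Dgkz 0.0105 and 0.0103 with upper-quartile scaling and weighted voom, and Cbl -0.028 without the filter. In batch 2: Itch -0.0043 without the filter and -0.012 with a minimum of 1 CPM. Interaction: Cbl -0.060 and Itch -0.065 with weighted voom, and Cbl -0.046, Rnf128 -0.0031 and Itch -0.063 without both replicates 3. Batch term: Cblb -0.048 and Cbl -0.045 with upper-quartile scaling. Leaving out a library gave, over both batches, Cbl -0.050 to 0.23, Cblb -0.022 to 0.15, Dgkz -0.077 to 0.15, Itch -0.18 to 0.020 and Ndfip1 -0.27 to 0.051. In batch 1 it gave Cbl -0.29 to 0.39, Dgkz -0.34 to 0.20, Itch -0.37 to 0.076, Ndfip1 -0.68 to 0.094 and Rnf128 -0.27 to 0.38. In batch 2 it gave Itch -0.071 to 0.082. For the interaction it gave Cbl -0.28 to 0.44, Dgkz -0.10 to 0.49, Itch -0.15 to 0.35 and Ndfip1 -0.080 to 0.74.

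Whether the replicate numbers pair the libraries is not known. Deviations of same-numbered libraries from their group and batch means correlated at 0.38, -0.40, -0.14 and -0.04, and number 3 lies in different batches. With 2 wildtype libraries per batch, their deviations mirror each other, so these correlations are not separate and cannot decide it. With a replicate block, 0 members were called over both batches and in batch 1; genes called were 1 over both, as without the block, and 58 in batch 1 against 31. Itch became 0.10 over both and 0.096 in batch 1, and Dgkz 0.080 in batch 1. No block could be fitted within batch 2, where the genotypes share 1 number.

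Genes called ranged from 0 to 16 over both batches (main value 1; 16 with DESeq2), 6 to 118 in batch 1 (31), 0 to 879 in batch 2 (0; 329 with DESeq2, 34 without the filter, 879 without wildtype replicate 4, 268 without wildtype replicate 3), 0 to 238 for the interaction (1; 165 with DESeq2) and 11456 to 25837 for the batch term (14221). Of batch 1 calls, 18 of 31 were higher with TMM, 31 of 56 with RLE factors and 1 of 6 with upper-quartile scaling, which moved the median of all genes from 0.04 to -0.08 and 0.11. Depth limits Rnf128, with 8 to 28 counts in batch 1.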
